A study of Mus musculus with 10 samples.

Results

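Ribosome biogenesis factors are the proteins that make ribosomes but are not part of the finished ribosome. A list of 48 such genes was followed through RNA-seq of progenitors sorted from mouse bone marrow, and rows were matched to it by gene symbol. The list was chosen with earlier results of these data known, so counts over its members only describe these data. Of the 48 genes, 47 matched a row among the 23240 genes of the table, and Noc2l was not analysed here. Imp3 was listed at 0 in all 10 libraries and could not be tested. The other 46 members were tested together with all genes that reached at least 1 RPKM (reads divided by the length of the gene and the size of the library) in at least 2 libraries, 10905 genes in all.

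The libraries came from mice that all carried the vav-Cre transgene, a Cre recombinase driven in blood cells. Wild-type mice had intact Runx1 (Runx1wt/wt), and Runx1-deleted mice had floxed Runx1 alleles (Runx1Δ/Δ). Runx1 encodes a transcription factor of blood development. Cells were lin- sca- kit+ CD41- CD105- and were sorted on 2 surface markers. GMP, granulocyte and macrophage progenitors, were CD16/32+ CD150-. MEP, megakaryocyte and erythroid progenitors, were CD16/32- CD150+. XMP were positive for both and came from Runx1-deleted marrow alone. Each of the 5 groups (wild-type GMP, Runx1-deleted GMP, wild-type MEP, Runx1-deleted MEP, XMP) held 2 libraries. The labels do not say whether replicate libraries came from separate animals, and a p-value here reflects only how far libraries of a group spread. No age is given.

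Ribosome assembly begins in the nucleolus, where RNA polymerase I transcribes a long precursor of the ribosomal RNAs. Small nucleolar ribonucleoproteins (snoRNPs) modify this precursor, those of the box C/D class by ribose methylation and those of the box H/ACA class by making pseudouridine, and large sets of processing factors then cut and fold it into the small and the large subunit. In dividing blood progenitors this is a main consumer of the cell's energy, and the transcription factor Myc, which binds the E-box letters CACGTG, is known to drive many of its genes.

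The read totals behind the values were 20.8 to 54.9 M per library, and each tested member held between 469 and 84630 reads in a library. The granule and neutrophil markers summed to 12287 and 12315 RPKM in wild-type GMP and to 85.0 and 90.7 in wild-type MEP, and the erythroid markers to 116 and 140.2 against 1914 and 1889, in the direction of the gates' names. Runx1 itself rose with its deletion in GMP (28.5 and 26.8 to 63.0 and 72.3 RPKM, limma adjusted p = 0.00306). It also rose in MEP (17.2 and 25.5 to 41.5 and 36.8 RPKM, limma adjusted p = 0.0215). At 85.9 and 78.5 RPKM it was higher in XMP than in Runx1-deleted MEP (limma adjusted p = 0.00836). The calls in MEP and in XMP were each lost under some alternatives. RPKM over a whole gene cannot show the loss of an exon. Long genes read higher relative to short ones in some libraries than in others. Between the top and the bottom quintile of gene length, the difference in median deviation ran from -0.94 (wild-type MEP replicate 1) to 0.51 (XMP replicate 2) on the log2 scale. This moved with the sequencing lane. The wild-type and the Runx1-deleted GMP libraries were run in different lanes, so lane and genotype cannot be told apart there. In bulk RNA, fewer cells of a type and less RNA per cell cannot be told apart either.

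Promoters are shown for the 3 members that passed the test in a comparison below (Wdr12, Ppan and Rrp1b) and for the 2 members with an E-box ahead of the start (Nop2 and Imp4). Each line holds the 150 bases before the RefSeq transcription start, 5′ to 3′ on the gene's own strand in build GRCm38.p6, with CACGTG and the ETS-type letters CCGGAAG, on either strand, in capitals. Where RefSeq lists several starts, the one farthest upstream was taken.
Wdr12 (chr1:60098501-60098650, minus strand): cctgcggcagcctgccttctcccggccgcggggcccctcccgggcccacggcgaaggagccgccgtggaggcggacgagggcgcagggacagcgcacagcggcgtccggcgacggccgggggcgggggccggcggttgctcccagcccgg
Ppan (chr9:20888025-20888174, plus strand): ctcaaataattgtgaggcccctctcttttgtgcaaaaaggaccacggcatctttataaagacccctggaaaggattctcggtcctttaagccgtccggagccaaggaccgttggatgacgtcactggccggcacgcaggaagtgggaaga
Rrp1b (chr17:32036012-32036161, plus strand): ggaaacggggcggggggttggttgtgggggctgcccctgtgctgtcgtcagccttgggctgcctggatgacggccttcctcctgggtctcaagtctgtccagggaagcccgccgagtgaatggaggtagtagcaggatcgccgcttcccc
Nop2 (chr6:125131733-125131882, plus strand): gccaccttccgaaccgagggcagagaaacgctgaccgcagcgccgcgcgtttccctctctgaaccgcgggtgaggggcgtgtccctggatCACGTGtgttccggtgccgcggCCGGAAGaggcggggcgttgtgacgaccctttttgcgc
Imp4 (chr1:34439679-34439828, plus strand): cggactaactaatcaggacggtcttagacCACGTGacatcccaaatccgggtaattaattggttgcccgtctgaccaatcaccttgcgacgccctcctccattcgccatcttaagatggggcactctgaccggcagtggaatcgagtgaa

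The stretches of Wdr12, Ppan and Rrp1b hold neither motif, whereas that of Nop2 holds both and that of Imp4 an E-box. RefSeq windows of 300 bases (250 before to 50 after the start) were matched by symbol for 43 of the 48 listed genes. An E-box (CACGTG, a palindrome) stood in the windows of 8 of these 43 genes (18.6%), against 12.3% of the 7909 tested genes with a window. In Nop2 and Imp4 it lay before the start, and in Grwd1, Ltv1, Pes1, Tsr1, Utp20 and Wdr43 after it. The letters CCGGAAG (either strand) stood in 18 windows (41.9%) against 21.4% of tested genes, and in 41.8% of the windows of cytosolic ribosomal protein genes. The window of Ppan is among the 18, with the letters outside the stretch shown, and those of Wdr12 and Rrp1b are not. The GC box letters GGGCGG stood in 30 windows (69.8% against 69.6%), and the RUNX-type letters TGTGGT in 3, those of Heatr1, Nop56 and Pes1 (6.98% against 15.2%). Both strands were searched for each, and a match describes letters, not a bound site.

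Across the 10 libraries, the members were lowest in XMP. The mean of log2(RPKM + 1) over the 47 members was 5.38 and 5.20 in the wild-type GMP libraries, 5.28 and 5.28 in Runx1-deleted GMP, 5.39 and 5.51 in wild-type MEP, 5.68 and 5.33 in Runx1-deleted MEP, and 5.13 and 4.97 in XMP. Both XMP libraries lay below all 8 others, and Runx1-deleted MEP replicate 1 lay above all others. The groups of the same gate overlapped between genotypes. The mean over all 10905 tested genes ran from 3.45 (wild-type MEP replicate 1) to 3.68 (XMP replicate 1).

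**Figure D1:**
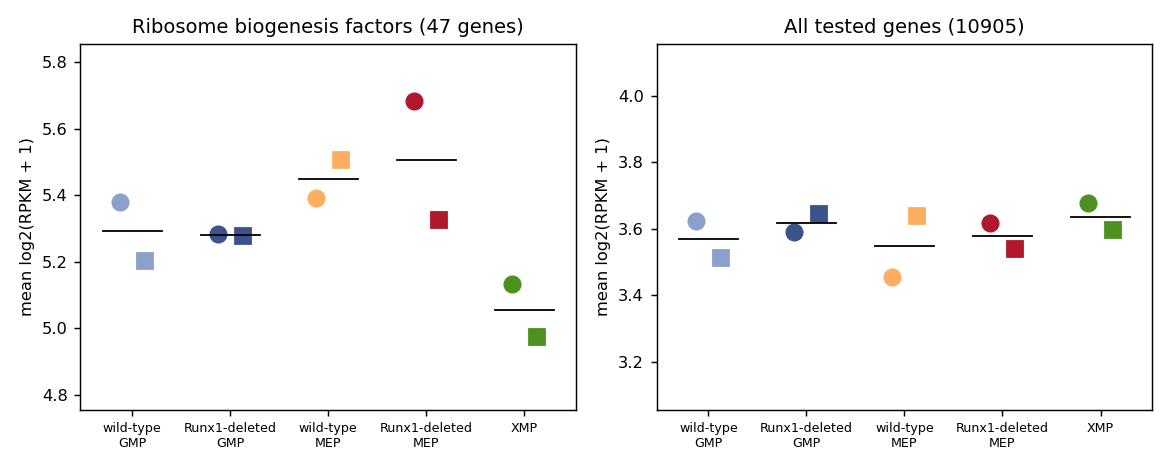
Mean log2(RPKM + 1) in each library of the 47 ribosome biogenesis factors (left) and of all 10905 tested genes (right); circles are replicate 1, squares replicate 2, lines group means, and both axes span the same range. The XMP libraries, at 5.13 and 4.97, lie below the other 8 on the left, whereas on the right XMP replicate 1 is the highest library.

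Single members varied by small factors. Over the 10 libraries the highest value of a member was 1.36 times (Ddx56) to 3.61 times (Nop10) the lowest. Runx1-deleted MEP replicate 1 was the highest library for 26 of the 46 members and wild-type MEP replicate 1 for 13. XMP replicate 2 was the lowest for 28 members, wild-type MEP replicate 1 for 8 and wild-type GMP replicate 2 for 7. The 2 libraries of Runx1-deleted MEP differed by 0.36 in the mean over members, the widest gap of any group, and those of Runx1-deleted GMP by 0.0043, the narrowest.

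**Figure D2:**
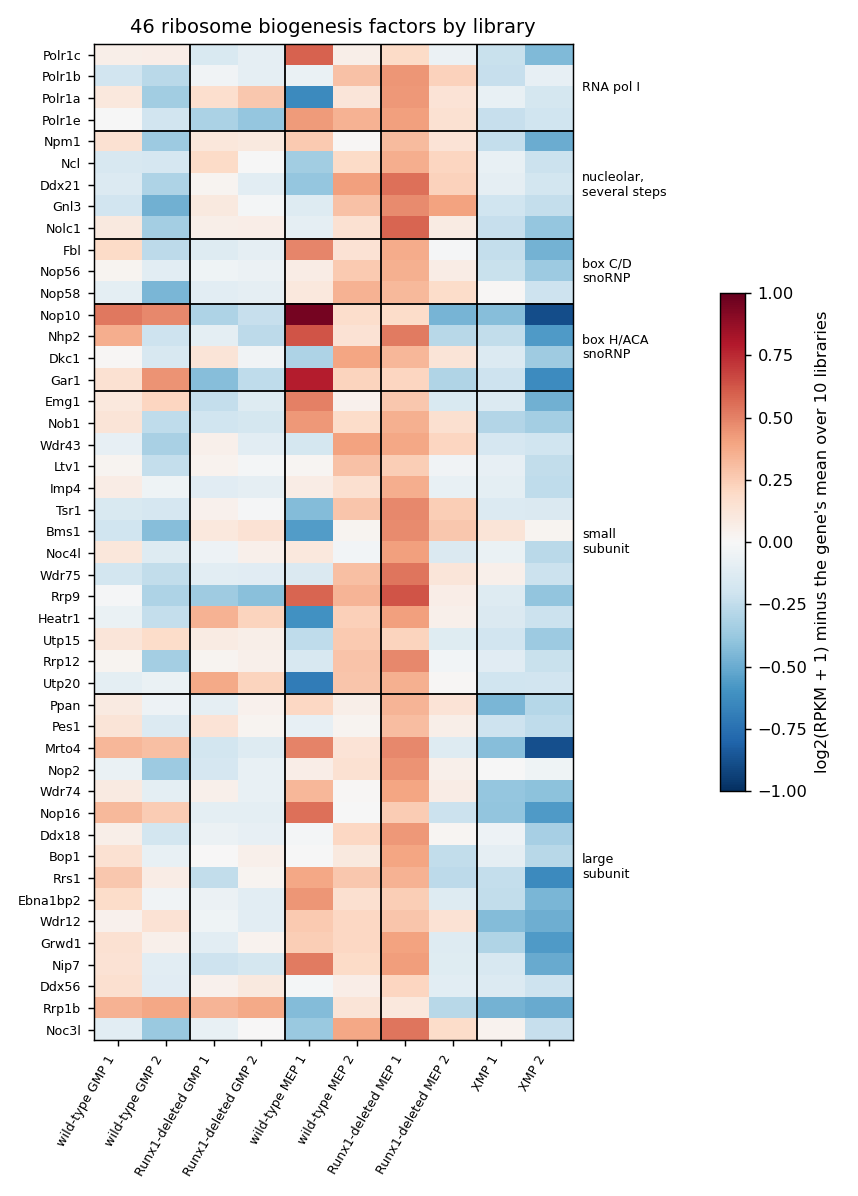
Log2(RPKM + 1) of the 46 tested members minus each gene's mean over the 10 libraries, with genes grouped by role and, within a role, ordered from the highest to the lowest mean RPKM. Runx1-deleted MEP replicate 1 is red for most genes and XMP replicate 2 blue, and Nop10, Gar1 and Utp20 differ in sign in wild-type MEP replicate 1, the library with the strongest trend by gene length.

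Of the 4 subunits of RNA polymerase I, Polr1a, Polr1b and Polr1e were among the lower members per length and Polr1c was not. Polr1c, a subunit shared with RNA polymerase III, read 57.5 and 57.7 RPKM in the wild-type GMP libraries, 49.4 and 51.6 in Runx1-deleted GMP, 83.4 and 57.4 in wild-type MEP, 62.8 and 52.7 in Runx1-deleted MEP, and 47.0 and 40.2 in XMP. Polr1b, the second largest subunit, read in the same order 16.7 and 15.8, 18.8 and 18.1, 18.3 and 23.7, 26.5 and 22.8, and 16.2 and 18.1 RPKM. Polr1a, the largest and catalytic subunit, read 16.2 and 11.6, 17.0 and 18.3, 9.33 and 16.4, 20.6 and 16.6, and 14.2 and 13.2 RPKM. For all 3 genes the XMP libraries lay below both Runx1-deleted MEP libraries. Polr1e, a subunit that acts in initiation, read 11.4 and 9.91, 9.02 and 8.52, 15.7 and 14.8, 15.6 and 12.8, and 9.60 and 9.84 RPKM. Its MEP libraries of both genotypes lay above all GMP and XMP libraries, and the difference of wild-type GMP from wild-type MEP was -0.49 ± 0.17 (log2 ± SE), with an adjusted p of 0.0706 in limma.

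The nucleolar proteins that act at several steps held the highest member. Npm1, nucleophosmin, a chaperone of nucleolar assembly, read 738 and 514 RPKM in the wild-type GMP libraries, 719 and 709.6 in Runx1-deleted GMP, 795 and 671 in wild-type MEP, 828 and 731 in Runx1-deleted MEP, and 564 and 471 in XMP. Npm1 has processed pseudogenes, and how shared reads were counted is not given in the sources used here, so its level is uncertain. Ncl, nucleolin, read in the same order 146 and 145, 187 and 162, 128 and 187, 211 and 189, and 155 and 140.2 RPKM, divided by a length of 8257 bp as worked back from the values. Both genes were higher in both Runx1-deleted MEP libraries than in either XMP library. Gnl3, nucleostemin, a GTP-binding protein of proliferating cells, read 55.6 and 45.3, 68.1 and 62.5, 57.9 and 78.0, 88.7 and 84.1, and 55.1 and 53.7 RPKM. Nolc1, a chaperone of snoRNPs, read 61.5 and 45.2, 59.8 and 60.3, 53.9 and 63.9, 86.4 and 60.9, and 48.7 and 43.7 RPKM. The helicase Ddx21 ran from 49.9 (wild-type MEP replicate 1) to 96.8 RPKM (Runx1-deleted MEP replicate 1).

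The 3 core proteins of box C/D snoRNPs were among the higher members per length. Fbl, fibrillarin, the methyltransferase itself, read 350.3 and 255 RPKM in the wild-type GMP libraries, 279 and 288 in Runx1-deleted GMP, 430.4 and 339 in wild-type MEP, 396 and 305 in Runx1-deleted MEP, and 260.1 and 221 in XMP. Nop56, its scaffold partner, read 119.7 and 109, 114 and 113, 123 and 141, 151 and 124, and 100.1 and 91.0 RPKM. Nop58, the other scaffold, read 92.8 and 72.0, 92.2 and 93.1, 107 and 127, 124 and 113, and 100.1 and 85.8 RPKM. All 3 read higher in both Runx1-deleted MEP than in both XMP libraries, and Nop56 and Nop58 also higher in both wild-type MEP than in both wild-type GMP libraries. For GMP minus MEP these 2 differences were -0.20 ± 0.17 and -0.50 ± 0.19 (limma adjusted p = 0.493 and 0.0824).

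The box H/ACA proteins held the members that varied most. Nop10, a small protein that binds the pseudouridine synthase, read 298 and 287 RPKM in the wild-type GMP libraries, 166 and 176 in Runx1-deleted GMP, 399.9 and 232 in wild-type MEP, 234 and 149 in Runx1-deleted MEP, and 153 and 111 in XMP. Gar1, which helps release the modified RNA, read 60.4 and 74.4, 40.3 and 45.4, 94.3 and 63.6, 63.1 and 43.9, and 46.9 and 34.7 RPKM. Nhp2, another core protein, read 211 and 142, 153 and 136, 253 and 181, 234 and 135, and 138 and 110.0 RPKM. In all 3, wild-type MEP replicate 1 was the highest library and XMP replicate 2 the lowest. Dkc1, dyskerin, the pseudouridine synthase, went another way in that library: it read 61.9 and 54.6, 67.0 and 59.9, 49.4 and 81.0, 77.2 and 67.0, and 55.5 and 47.6 RPKM. The gene lengths differ, with 695 bp for Nop10, 1004 for Nhp2 and 1271 for Gar1 against 2803 for Dkc1.

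Among the 14 tested factors of the small subunit, mean levels ran from 9.18 (Utp20) to 119 RPKM (Emg1). Emg1, a methyltransferase of the small subunit RNA, read 126 and 136 RPKM in the wild-type GMP libraries, 99.2 and 107 in Runx1-deleted GMP, 166 and 121 in wild-type MEP, 142 and 105 in Runx1-deleted MEP, and 106 and 83.7 in XMP. Nob1, the nuclease of the last cut of that RNA, read 55.2 and 42.2, 43.7 and 44.4, 68.4 and 57.4, 64.9 and 56.4, and 41.0 and 39.5 RPKM. Both MEP groups were above both XMP libraries in Nob1, whereas Emg1 overlapped. At the low end, Rrp12, an export factor, read 14.3 and 10.9, 14.3 and 14.6, 12.5 and 17.4, 20.0 and 13.8, and 12.9 and 11.9 RPKM. Utp20, a very large scaffold of the processome, read 8.28 and 8.53, 12.0 and 10.6, 5.14 and 11.0, 11.8 and 9.04, and 7.65 and 7.74 RPKM. Wild-type MEP replicate 1 was the lowest library for Utp20, as it was for Polr1a.

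The 16 tested factors of the large subunit held the 3 members that passed a test. Ppan, a pre-ribosomal RNA processing protein, read 77.1 and 69.9 RPKM in the wild-type GMP libraries, 68.0 and 74.5 in Runx1-deleted GMP, 83.8 and 75.5 in wild-type MEP, 92.0 and 79.5 in Runx1-deleted MEP, and 52.4 and 59.0 in XMP. Wdr12, which forms the PeBoW complex with Pes1 and Bop1, read 26.7 and 28.8, 25.2 and 24.0, 31.2 and 30.01, 31.7 and 28.7, and 18.9 and 18.2 RPKM. Both genes were lower in the XMP libraries than in all 8 others. Pes1, pescadillo, read 76.6 and 63.6, 77.2 and 71.4, 66.3 and 71.7, 87.1 and 73.0, and 60.6 and 58.6 RPKM, again with XMP below all others. Rrp1b, a nucleolar protein related to Rrp1, read 16.5 and 17.1, 16.5 and 16.9, 9.23 and 14.1, 13.8 and 10.4, and 8.98 and 8.75 RPKM, so that the GMP libraries of both genotypes lay above all MEP and XMP libraries. Noc3l, of the Noc complex that escorts the particle, was the lowest member of this role at 8.83 and 7.18, 9.06 and 9.57, 7.17 and 12.8, 14.3 and 11.0, and 9.85 and 8.03 RPKM, and its Runx1-deleted MEP libraries lay above all GMP and XMP libraries.

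No member passed the test for Runx1 deletion in GMP (limma with Benjamini-Hochberg adjustment over 10905 genes, adjusted p under 0.05), where 5.22% of all tested genes did. Of the 46 members 22 had a positive and 24 a negative difference. The median was -0.01 on the log2 scale against 0.05 for all genes. An unadjusted limma p under 0.05 was found for 2 members, beside 2486 of the 10905 tested genes. The smallest adjusted p in limma was 0.152, for Nop10 (-0.77 ± 0.29). Libraries of the genotypes did not overlap in 12 members that read higher (26.1%, against 37.2% of all genes) and in 15 that read lower (32.6%, against 29.4%). The unadjusted 95% interval of the difference lay within a 2-fold change either way for 44 of the 46 members. That number was 41 for Runx1 deletion in MEP and 33 for XMP minus Runx1-deleted MEP. Lane and genotype cannot be told apart in GMP, so the interval there sets no bound on the effect of Runx1 deletion alone. When limma was fitted to the GMP libraries alone, 3 members passed, all lower in Runx1-deleted GMP. The share of all genes that passed in that fit is not given here, so the count cannot be set against it.

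In MEP, too, 0 members passed for Runx1 deletion, against 8.0% of all tested genes. Here 3 members had an unadjusted limma p under 0.05, beside 2408 of the 10905 tested genes. Differences were positive in 29 members and negative in 17, with a median of 0.05 (all genes 0.03). Groups did not overlap in 5 members that read higher (10.9%, against 21.6% of all genes) and in 1 that read lower (2.17%, against 21.0%). The smallest limma adjusted p was 0.0909, for Bms1, a GTPase of the processome, at 17.9 and 27.5 RPKM in wild-type MEP and 37.8 and 32.6 in Runx1-deleted MEP (0.64 ± 0.21). The count rests on the wild-type libraries: without wild-type MEP replicate 2, 9 members passed as higher and 2 as lower, in a fit that called 31.4% of all genes and took the lone wild-type MEP library to vary like the other groups. The difference between the Runx1 effects in GMP and in MEP passed for 0 members and for 1.74% of all genes. At an unadjusted limma p under 0.05 there were 0 members, beside 1096 of the 10905 tested genes.

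The sign of these differences followed gene length. Across the 46 members, the Runx1 difference correlated with log2 gene length at r = 0.71 in GMP and 0.74 in MEP, beside 0.42 and 0.38 across all tested genes (genes are not independent replicates, and all points share the same libraries). The 10 shortest members (695 to 1647 bp, among them Nop10, Gar1, Mrto4, Nhp2 and Fbl) were negative in 10 of 10 cases in GMP and in 9 of 10 in MEP. The 10 longest (3998 to 8831 bp, among them Utp20, Ncl, Heatr1, Polr1a and Bms1) were positive in 8 of 10 and in 10 of 10. With the length trend of each library removed over all genes, the correlations were 0.08 and 0.17, the medians of the 10 shortest were -0.07 and 0.03, and those of the 10 longest -0.00 and 0.05. The part of lane or library preparation in the trend was not tested.

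**Figure D3:**
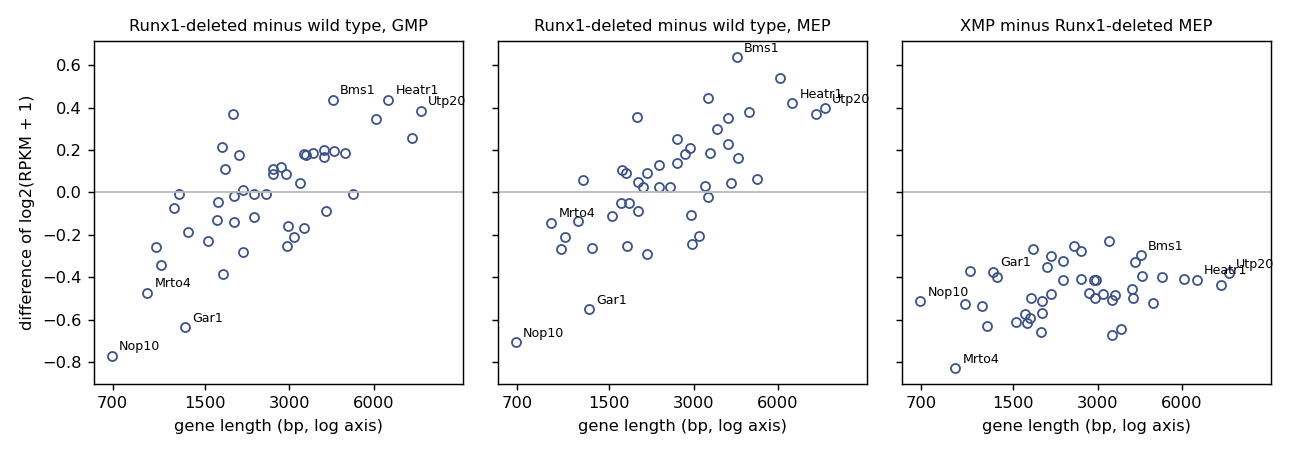
Difference of log2(RPKM + 1) for each of the 46 tested members against gene length (log axis) for Runx1 deletion in GMP (left), in MEP (middle) and for XMP minus Runx1-deleted MEP (right). Short genes such as Nop10 lie below 0 and long ones such as Heatr1 above it in the first 2 panels, whereas in the right panel all 46 members lie below 0 at every length.

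XMP differed most from Runx1-deleted MEP. All 46 members had a negative difference, from -0.23 (Ddx56) to -0.83 (Mrto4), with a median of -0.46 on the log2 scale against 0.05 for all tested genes. The mean over members differed by -0.45. Libraries did not overlap in 39 members that were lower in XMP (84.8%, against 20.1% of all genes) and in 0 that were higher (33.6% of all genes). The test passed for 2 members, both lower in XMP: Wdr12 (-0.67 ± 0.15, limma adjusted p = 0.0212) and Ppan (-0.61 ± 0.17, limma adjusted p = 0.0480). This is 4.35% of the members, beside 2.60% of all genes called lower and 7.74% called in either direction. At an unadjusted limma p under 0.05 there were 18 of the 46 members, beside 2163 of the 10905 tested genes. Mrto4, a ribosome assembly factor related to a stalk protein, had the largest difference (85.6 and 56.0 RPKM in Runx1-deleted MEP against 45.2 and 32.8 in XMP) and just missed the threshold (-0.83 ± 0.23, limma adjusted p = 0.0541).

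These 46 differences share 4 libraries and are not independent of each other. Without Runx1-deleted MEP replicate 1, the library with the highest member levels, the mean difference over members was -0.27, and without replicate 2 it was -0.63. The call of Wdr12 was lost without Runx1-deleted MEP replicate 1 or 2 (limma adjusted p = 0.1501 and 0.0699), XMP replicate 1 or 2 (0.121 and 0.151), or Runx1-deleted GMP replicate 1 or 2 (0.0548 and 0.0550). That of Ppan was lost without any 1 of these or of the wild-type GMP libraries (limma adjusted p from 0.0599 to 0.296). Without wild-type MEP replicate 1, or without replicate 2, more members passed, all lower in XMP. The share of all genes that passed in those fits is not given here. Within lane 5, which keeps 1 XMP library, 0 members passed and the mean difference over members was -0.37.

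With the length trend removed from every library, 26 of the 46 members passed as lower in XMP (56.5%), beside 7.02% of all genes called lower. They were 9 factors of the large subunit, 7 of the small subunit, all 5 nucleolar proteins, 3 subunits of RNA polymerase I and 2 box C/D proteins, and none of box H/ACA. The smallest limma adjusted p were those of Mrto4 (-0.79 ± 0.14, 0.00581), Ppan (-0.62 ± 0.12, 0.00847) and Wdr12 (-0.76 ± 0.15, 0.00850). The mean over members was -0.50, and the error became smaller. The size of the differences moved by gene length. The median of the 10 longest members went from -0.405 to -0.559, and that of the 10 shortest from -0.530 to -0.499. The trend was estimated from the same libraries that were then tested, and the p-values take no account of that. Its removal also brought every library to the same mean over all tested genes, so the 26 calls come from both steps together.

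**Figure D4:**
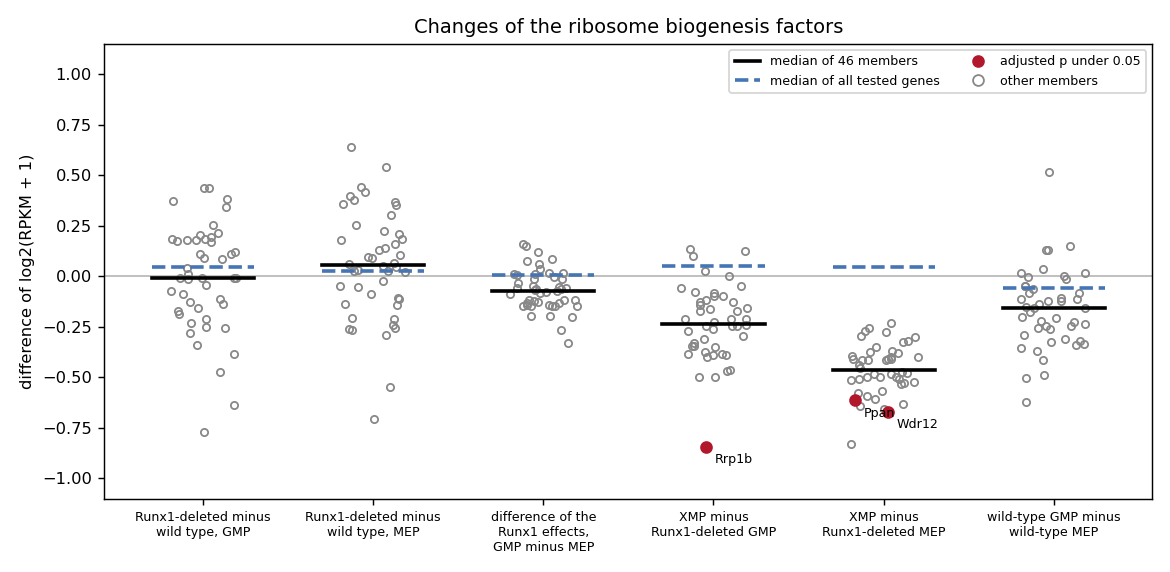
Difference of log2(RPKM + 1) for the 46 tested members in the 6 comparisons, with the median of the members (black line) and of all tested genes (dashed blue line); filled red points passed the test. In XMP minus Runx1-deleted MEP all points lie below 0 and Wdr12 and Ppan passed, and Rrp1b passed in XMP minus Runx1-deleted GMP.

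Against Runx1-deleted GMP, XMP libraries were also mostly lower, with 42 members negative and 4 positive and a median of -0.23 (all genes 0.05). This comparison shares the XMP libraries with the one above and is not a second observation of them. Libraries did not overlap in 30 members that were lower in XMP (65.2%, against 28.6% of all genes) and in 2 that were higher (4.35%, against 37.4%). Rrp1b alone passed (-0.84 ± 0.21, limma adjusted p = 0.0152), which is 2.17% of the members beside 9.90% of all genes called lower and 19.7% called in either direction. Its call was lost without either Runx1-deleted GMP library (limma adjusted p = 0.0900 and 0.104) or either XMP library (0.0739 and 0.0867), with a difference of -0.83 to -0.86 throughout. Rrp1b was 0.52 ± 0.21 higher in wild-type GMP than in wild-type MEP, where limma's adjusted p was 0.120. Both XMP libraries (8.98 and 8.75 RPKM) lay below all 4 MEP libraries.

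Wild-type GMP minus wild-type MEP was negative in 38 members and positive in 8, with a median of -0.16 (all genes -0.06). No member passed, while 21.6% of all tested genes did. An unadjusted limma p under 0.05 was found for 5 members, beside 3437 of the 10905 tested genes. Libraries did not overlap in 14 members lower in GMP (30.4%, against 27.1% of all genes) and in 1 higher (2.17%, against 22.0%). The smallest limma adjusted p was 0.0680, for Rrp9, a protein of the U3 snoRNP, at 18.3 and 14.6 RPKM in GMP and 28.03 and 23.5 in MEP. Some members passed when a wild-type or a Runx1-deleted MEP library was left out, and the share of all genes that passed in those fits is not given here. The mean over members ran from -0.25 to -0.07 when 1 library was left out.

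Other genes of the same pathway were counted from lists of 149 tested genes, ribosomal proteins left out. In XMP minus Runx1-deleted MEP, 134 of the 149 were negative and 15 positive, with a median of -0.26. Libraries did not overlap in 80 that were lower in XMP and in 5 that were higher, beside 2197 and 3666 of the 10905 tested genes. By the test, 5 of the 149 fell and 0 rose. Of all 10905 tested genes 284 fell (2.60%) and 560 rose, with a median of 0.05, so the count of falls was near that share. Those that fell were Rcl1, Pwp2, Utp14a and Cirh1a of the small subunit processome and Nmd3, the export adaptor of the large subunit. Rcl1, an RNA cyclase-like protein, read 64.7 and 54.6 RPKM in Runx1-deleted MEP and 37.3 and 33.6 in XMP (-0.73 ± 0.17, limma adjusted p = 0.0212). Nmd3 read 21.2 and 19.0 against 12.1 and 11.7 (-0.71 ± 0.18, 0.0375 in limma). In XMP minus Runx1-deleted GMP, C1d of the RNA exosome rose (13.4 and 13.3 to 23.8 and 21.1 RPKM) and none fell. Of all tested genes 1063 rose and 1080 fell there. In wild-type GMP minus wild-type MEP, 4 were lower (Rcl1, Sbds, Polr3g and Brf1), beside 1072 of the 10905 tested genes. In both Runx1 comparisons 0 passed, with 17 in GMP and 9 in MEP at an unadjusted limma p under 0.05. Among all tested genes there were 2486 in GMP and 2408 in MEP at such a p.

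Cytosolic ribosomal protein genes, the products that these factors assemble, gave 0 calls among 77 tested genes in every comparison. At an unadjusted limma p under 0.05 there were 11, 3, 0, 2, 3 and 2, in the order of the 6 comparisons of the plot of changes. Among all 10905 tested genes there were 2486, 2408, 1096, 3079, 2163 and 3437. In XMP minus Runx1-deleted MEP all 77 were negative, with a median of -0.40. Libraries did not overlap in 76 that were lower in XMP and in 0 that were higher, beside 2197 and 3666 of all tested genes. They are short genes, and their medians for Runx1 deletion, -0.42 in GMP and -0.35 in MEP, have the sign that short members had. Many have processed pseudogenes, so their levels are uncertain.

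Myc, named whatever its value, moved with the members in XMP. It read 196 and 122 RPKM in the wild-type GMP libraries, 152 and 181 in Runx1-deleted GMP, 188 and 169.8 in wild-type MEP, 217 and 185 in Runx1-deleted MEP, and 93.2 and 99.2 in XMP. Its XMP libraries lay below all others, and it fell against Runx1-deleted MEP (-1.05 ± 0.23, limma adjusted p = 0.0184) and Runx1-deleted GMP (-0.78 ± 0.23, limma adjusted p = 0.0336). Leaving out any 1 library of the groups compared ended each call (limma adjusted p from 0.0551 to 0.241), as did testing without the filter on low values (0.0625 and 0.0765). Mycn, its relative in stem and early progenitor cells, went the opposite way, at 2.16 and 2.53, 3.67 and 5.50, 35.3 and 35.1, 22.1 and 12.2, and 49.9 and 44.7 RPKM. In XMP it was higher than in Runx1-deleted GMP (3.13 ± 0.26, limma adjusted p = 5.45e-06) and MEP (1.47 ± 0.26, limma adjusted p = 0.00602, and 0.0562 without XMP replicate 1). Max, the shared partner of both proteins, ran from 50.8 to 70.2 RPKM and passed in no comparison. Among the other genes of the Myc family list, Mxd3 rose in XMP against Runx1-deleted MEP (1.27 ± 0.25, limma adjusted p = 0.0102). Against Runx1-deleted GMP, Mxd3 and Mxd1 rose (1.03 ± 0.25 and 1.13 ± 0.18, limma adjusted p = 0.0117 and 0.000713) and Mycl1 fell (-0.70 ± 0.18, 0.0190 in limma). Mxd1 also rose with Runx1 deletion in MEP (0.85 ± 0.18, limma adjusted p = 0.0141).

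**Figure D5:**
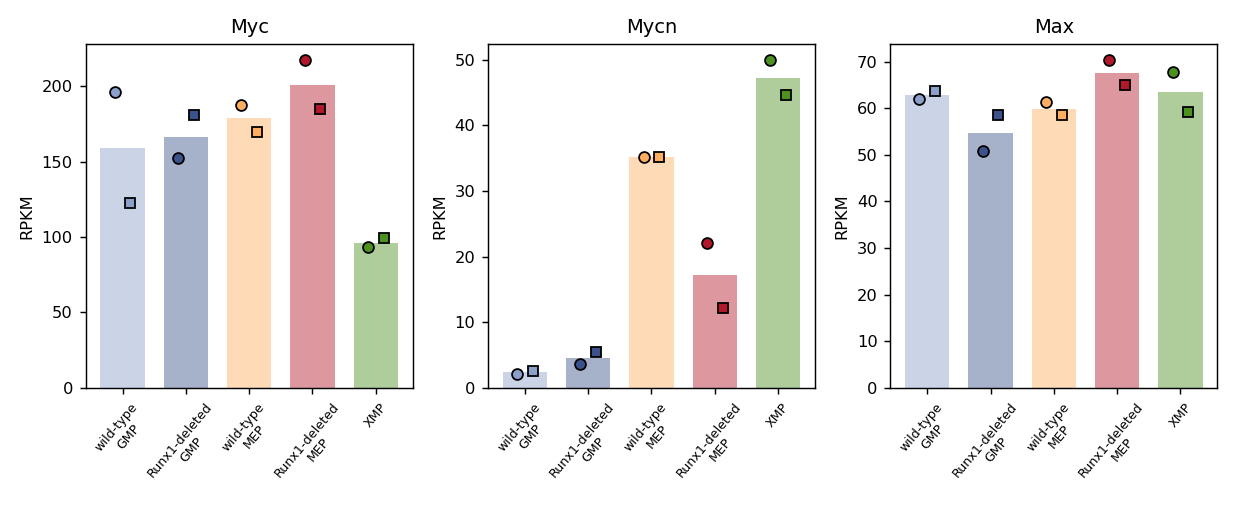
RPKM of Myc, Mycn and Max in each library (circles replicate 1, squares replicate 2) with bars at the group means, on axes that start at 0. Myc is lowest and Mycn highest in the XMP libraries, at 93.2 and 99.2 and at 49.9 and 44.7 RPKM.

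Markers of other cells and of the cell cycle differed in the same comparison. Megakaryocyte and platelet markers (15 of 15 measured) summed to 2074 and 1647 RPKM in XMP against 947 and 793 in Runx1-deleted MEP, granule and neutrophil markers (14 of 15 at 1 RPKM or more in 2 libraries) to 228 and 198 against 61.9 and 58.4, and erythroid markers to 1910 and 1100 against 2274 and 2026. The erythroid sum hides changes in both directions: of the 15 markers 9 fell and 4 rose in limma, with a median of -1.36. Among those that fell were Rhag, a red cell membrane protein (32.5 and 28.2 RPKM in Runx1-deleted MEP against 4.46 and 2.92 in XMP), and Klf1, an erythroid transcription factor (153 and 112 against 33.04 and 25.6). The globin genes Beta-s (222 and 191 against 872 and 445) and Hba-a1 (64.8 and 57.4 against 321 and 154) were among those that rose. Of 20 genes of the G2 and M phases all were positive, with a median of 0.76. Of these, 2 rose at an adjusted p under 0.05 (Nusap1 and Kif23, limma adjusted p = 0.0191 and 0.0221), and 17 had an unadjusted limma p under 0.05. Among all 10905 tested genes 560 rose and 284 fell, and 2163 had an unadjusted limma p under 0.05. Of 28 genes of the S phase 0 passed, with a median of 0.10 and 0 at an unadjusted limma p under 0.05. Of 14 tested genes of the p53 and ribosome checkpoint list, 1 rose and 0 fell. It was Cdkn1a (3.07 and 3.27 RPKM in Runx1-deleted MEP against 7.37 and 6.58 in XMP, limma adjusted p = 0.0108). For Runx1 deletion in GMP, Pmaip1 and Trp53inp1 of that list rose (limma adjusted p = 0.0239 and 0.0289) and Cdkn1a fell (0.0217 in limma). The part of the differences between XMP and Runx1-deleted MEP in the lower level of the ribosome biogenesis factors in XMP was not tested.

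In the authors' deposited table, which holds the p-values of Baggerley's test between groups, 1 of the 46 members (2.17%) had an FDR-corrected p-value under 0.05 in each of 4 of the comparisons above. It was Nop10 for Runx1 deletion in GMP (1.97% of all tested genes), and Npm1 for Runx1 deletion in MEP (1.65%), for XMP against Runx1-deleted GMP (7.97%) and for XMP against Runx1-deleted MEP (3.49%). For wild-type MEP against wild-type GMP the authors' deposited table gave 0 members, beside 6.61% of all tested genes. Its other 5 pairs of groups were not compared with limma. There the authors' deposited table gave 8 members for Runx1-deleted MEP against wild-type GMP (12.5% of all tested genes) and 2 for XMP against wild-type GMP (14.6%). It gave 1 for wild-type MEP against Runx1-deleted GMP (7.94%), 1 for XMP against wild-type MEP (4.22%) and 0 for Runx1-deleted MEP against Runx1-deleted GMP (9.80%). In the comparisons that limma also tested, its main fit called neither Nop10 nor Npm1. With the length trend removed, Npm1 passed as lower in XMP than in Runx1-deleted MEP (limma adjusted p = 0.0244). For Nop10 and Runx1 deletion in GMP, the limma adjusted p ran from 0.0155 to 0.285 over the alternatives other than leaving out 1 library.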

How the data were processed

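RNA was sequenced from sorted bone-marrow progenitors in 10 libraries, 5 groups of 2, grouped by the sample labels. The authors deposited RPKM per gene and library. Per the file headers they also deposited, for pairs of groups, Baggerley's test with its p-value and an FDR-corrected one. Per the submitters' processing notes the reads were placed on mm9. Neither the aligner nor the counter is given in the sources used here. Libraries were made with either of 2 kits per the labels' protocols, which do not say which library had which, so kit and group could not be compared. Lanes come from the file headers.

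A gene was tested where 2 or more libraries reached 1 RPKM (10905 of 23240 genes). The model, in limma 3.58.1 (R 4.3.3), took log2(RPKM + 1) of all 10 libraries, a mean for each group and a variance trend in eBayes, which leaves 5 residual degrees of freedom. P-values were adjusted by Benjamini-Hochberg within a comparison. Differences on this scale understate changes of low genes. The mean over members had no test. Reads and gene lengths were worked back from the steps of the RPKM values: for 19336 genes all values were whole reads within 0.01 read, 3904 genes were at 0 throughout and 0 were neither. Both steps were tested on simulated data.

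Every library's value was given for members that passed a test and for the 2 highest and 2 lowest of each role. The other members entered the counts, medians and plots, and not all of them are named in the text. Of the marker and other lists only some passing genes are named. Myc, Mycn, Max and Runx1 were named whatever their values. Mrto4, Bms1, Rrp9, Klf1, Beta-s and Hba-a1 were named for their values after these were seen, and all genes of the other pathway lists that passed are named. Members and lists were chosen with earlier results of these data known. Alternatives were a pseudocount of 0.1, no filter, at least 5 RPKM, only the groups compared, median centring, quantile normalization, removal of the length trend, lane 5 alone, replicate and library number blocks, limma-voom on the recovered reads, and leaving out each library. Removal of the length trend also equalized the libraries' means over all tested genes. The labels do not say that a replicate number marks a shared animal or day, and the model held no block.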

Additional observations from a re-analysis of the deposited data

Results flagged for a closer look

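No ribosome biogenesis factor passed the test for a difference between the Runx1 effects of the gates. Mycn did, a regulator of the pathway outside the member list. The difference of its Runx1 effects, GMP minus MEP, was 1.774 on the log2 scale (limma adjusted p = 0.0341). Its level went from 2.16 and 2.53 RPKM in wild-type GMP to 3.67 and 5.50 in Runx1-deleted GMP, a difference that did not pass (0.72 ± 0.26, limma adjusted p = 0.134), and it fell from 35.3 and 35.1 to 22.1 and 12.2 in MEP (-1.05 ± 0.26, limma adjusted p = 0.0304). The difference of the effects was positive under every alternative run, at 1.37 to 2.17 when 1 library was left out. It missed the threshold in 12 of them, among them a pseudocount of 0.1 (limma adjusted p = 0.0510), no filter (0.1015), limma-voom on recovered reads (0.0800) and leaving out either wild-type GMP library (0.123 and 0.1396). The fall in MEP was lost without Runx1-deleted MEP replicate 2 (limma adjusted p = 0.270), wild-type MEP replicate 1 (0.103) or either wild-type GMP library (0.0582 and 0.0583), and with no filter (0.0909), only the groups compared (0.128) or lane 5 alone (0.163).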

How the results depend on the processing

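Counts of members that passed are given as higher and lower together. The share of all genes that passed is not printed beside the counts in this section. The counts therefore show how far a setting matters and are no result about the members. For XMP minus Runx1-deleted MEP (2), the count was 1 without a filter and with at least 5 RPKM, 4 with median centring, 8 with quantile normalization, 26 with the length trend removed, 0 in lane 5 alone, 6 with a library number block and 5 with limma-voom, all lower in XMP. For XMP minus Runx1-deleted GMP (1), it was 2 without a filter, 4 with only the groups compared, 3 with quantile normalization and 5 with the length trend removed. For Runx1 deletion it was 3 in GMP with only the groups compared, and 1 in MEP with median centring, quantile normalization or the length trend removed. For wild-type GMP minus wild-type MEP (0), it was 1 with median centring, 3 with quantile normalization, 6 with the length trend removed, 3 with limma-voom and 1 with a library number block. The cause was not tested.

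Leaving out 1 library at a time gave 0 to 0 in GMP, 0 to 11 in MEP, 0 to 0 for the difference of the Runx1 effects, 0 to 2 and 0 to 9 for XMP minus Runx1-deleted GMP and MEP, and 0 to 6 for the wild-type comparison. The mean over members ran from -0.10 to 0.08, -0.12 to 0.23, -0.24 to 0.11, -0.31 to -0.15, -0.63 to -0.27 and -0.25 to -0.07 in the same order. In GMP that mean (-0.01) was -0.12 with median centring and 0.084 with quantile normalization, so its sign is not settled.

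With the replicate number as a block, 1 member passed in the wild-type comparison, lower in GMP, and 3 in XMP minus Runx1-deleted MEP. Deviations of same-numbered libraries correlated at 0.297 to 0.782 among wild-type MEP, Runx1-deleted MEP and XMP, and below 0 in all pairs with a GMP group. By library number, Runx1-deleted GMP correlated with those 3 groups at 0.339 to 0.475, and wild-type GMP with none of them above 0. The labels tie neither number to an animal or a day, and a comparison holds 2 pairs, so no pairing was assumed. By number wild-type GMP and MEP correlated at -0.111, and a block with the numbers of wild-type GMP crossed, chosen after seeing the data, gave 0. With 2 libraries a group, the unadjusted 95% interval of a member's difference between groups reached a median of 0.45 (log2) to either side.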
